A study of Mus musculus with 6 samples.

Results

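The expression of 10 genes of interleukin-6 (IL-6) family signalling was followed in Ocy454 cells, a mouse osteocytic cell line. They were chosen by gene symbol from the 39179 genes of the expression table, and comprised 4 ligands (Il6, Il11, Lif and Clcf1), 4 receptor chains (Il6st, Il6ra, Lifr and Osmr), the transcription factor Stat3 and the feedback inhibitor Socs3. All 10 were listed in the table, and 9 of the 10 passed the filter on low values. All cells had been held at 37 °C for 14 days and were then exposed for 4 h to vehicle, to parathyroid hormone fragment PTH 1-34 at 1 nM, or to YKL-05-093 at 0.5 µM. YKL-05-093 blocks salt-inducible kinases (SIKs), which lie downstream of cyclic AMP. The comparison of the 2 agents asks how far the transcriptional response to this SIK inhibitor is shared with PTH. The paper reports that the inhibitor also acts on other kinases in vitro. In the paper's tests, the response of most genes measured depended on SIK family members, while some genes still responded in cells depleted of them. Which of the responses to the inhibitor described here depend on SIKs was not tested. The labels give the vehicle as phosphate-buffered saline with hydrochloric acid, whereas the study's methods name DMSO as the solvent of the compounds in cell culture, so the solvent of these samples is uncertain. Each condition had 2 libraries, 6 in all, from this 1 cell line. No source used here says whether the duplicates were separate cultures, so the p-values measure the spread between libraries, which may be technical.

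IL-6 family cytokines signal through receptor complexes that hold the shared chain gp130, encoded by Il6st, together with a ligand-specific chain. Ligand binding activates JAK kinases, which phosphorylate STAT3, and STAT3 in turn induces SOCS3, an inhibitor that binds gp130 and the JAKs. In bone, members of the family are produced by and act on osteoblasts and osteocytes, and PTH is a known inducer of Il6 in osteoblastic cells.

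The recovered library totals ran from 17505798 to 27983585 reads. The median absolute log2 difference between duplicates was 0.333 within the vehicle pair, 0.108 within the PTH pair and 0.103 within the YKL-05-093 pair, so that comparisons with vehicle had the wider error. Of the osteocyte markers, 3 of 6 exceeded 0.5 RPKM (reads scaled to gene length and to library total) in any library, and Sost, Mepe and Fgf23 were at or near 0, whereas 5 of 5 osteoblast lineage markers exceeded it. Among markers of other cell types, 1 of 5 macrophage genes (Cd68), 0 of 3 endothelial and 0 of 3 adipocyte genes exceeded 0.5 RPKM. The summed RPKM of the macrophage list was 4.04 to 4.24 in vehicle, 3.83 to 4.5 in PTH and 4.11 to 4.51 in YKL-05-093 libraries. The summed RPKM of the osteocyte list, most of it Pdpn, was 55.7 to 73.3 in vehicle, 165 to 176 in PTH and 98.4 to 99.1 in YKL-05-093 libraries, and its part in the results was not tested. Osteoblast lineage genes also moved with PTH: the transcription factor Sp7 differed by -1.97 (SE 0.16, limma adjusted p = 0.00189, called), Runx2 by -1.09 (SE 0.22, limma adjusted p = 0.0624) and osteocalcin, Bglap, by 1.58 (SE 0.26, limma adjusted p = 0.0284, called), and their part in the results was not tested. None of the 5 was called with YKL-05-093, where 1 had an unadjusted p under 0.05 by limma. In a bulk measurement, more cells expressing a gene and more RNA per cell cannot be told apart.

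Promoter sequences are shown for the members that the results turn on: Il6, whose treated libraries lay above vehicle with both agents without passing the test, Osmr and Stat3, which passed the test after PTH, and Socs3, the feedback inhibitor. Each is the 250 bases before the RefSeq transcript start in GRCm38.p6, written 5′ to 3′ on the gene's strand. Capitals mark matches, on either strand, to the motifs described after them.
Il6, chr5:30012864-30013113, plus strand: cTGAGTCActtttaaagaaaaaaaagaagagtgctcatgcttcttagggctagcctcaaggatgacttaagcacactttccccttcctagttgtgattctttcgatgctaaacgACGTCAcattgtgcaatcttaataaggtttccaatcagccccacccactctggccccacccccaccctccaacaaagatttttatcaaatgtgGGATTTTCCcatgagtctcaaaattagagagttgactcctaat
Osmr, chr15:6874314-6874563, minus strand: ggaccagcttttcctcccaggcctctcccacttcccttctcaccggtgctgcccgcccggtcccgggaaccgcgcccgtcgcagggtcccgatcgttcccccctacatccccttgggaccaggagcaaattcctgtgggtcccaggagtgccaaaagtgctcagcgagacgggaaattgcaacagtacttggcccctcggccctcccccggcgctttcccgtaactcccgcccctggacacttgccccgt
Stat3, chr11:100939541-100939790, minus strand: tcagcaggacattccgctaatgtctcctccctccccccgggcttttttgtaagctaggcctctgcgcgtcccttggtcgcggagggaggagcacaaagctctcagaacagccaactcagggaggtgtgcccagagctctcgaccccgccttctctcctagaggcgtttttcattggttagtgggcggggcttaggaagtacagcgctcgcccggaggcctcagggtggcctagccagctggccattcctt
Socs3, chr11:117969367-117969616, minus strand: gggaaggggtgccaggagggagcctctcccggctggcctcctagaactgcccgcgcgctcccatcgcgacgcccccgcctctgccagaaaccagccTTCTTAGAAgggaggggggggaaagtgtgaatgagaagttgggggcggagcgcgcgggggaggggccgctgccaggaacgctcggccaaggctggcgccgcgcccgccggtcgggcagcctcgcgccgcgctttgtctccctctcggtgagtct

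Searched letters were the core of the cyclic AMP response element (CRE) bound by CREB (TGACG, its longer form TGACGT and the full TGACGTCA, which contain one another), the STAT site TTCNNNGAA, the AP-1 site TGANTCA and the NF-kB letters GGNNTTTCC. In the Il6 window, the AP-1 letters lay at -249 to -243, the CRE core at -135 to -131, within the longer form at -136 to -131, and the NF-kB letters at -43 to -35, counted from the transcript start. In the Socs3 window, the STAT letters TTCTTAGAA lay at -154 to -146. The Osmr and Stat3 windows held none of these motifs. The RefSeq starts of Osmr and Socs3 lie downstream of their starts in the GENCODE annotation. Their windows therefore fall inside the gene spans given later. Among 32851 promoters of the same length, 17.8% held TGACG, 6.47% TGACGT, 1.55% TGACGTCA, 7.02% the STAT letters, 6.75% the AP-1 letters and 4.93% the NF-kB letters. The letters were chosen after the Il6 promoter had been seen, so these shares give no test of the Il6 matches. RefSeq entries were matched for 9 of the 10 members, with 11 promoters between them. Lif held the AP-1 letters at -228 to -222, one of the Il11 promoters held them at -98 to -92, and Il6ra held CGTCA, the reverse complement of TGACG, at -236 to -232. The windows of Il6st and Lifr held no match, and those of Lifr also fall inside its GENCODE span. The Il11 window with the AP-1 letters falls inside the Il11 span as well. These matches describe letters in the windows and show no binding.

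In vehicle-treated cells, the shared receptor chain Il6st and the leukaemia inhibitory factor receptor Lifr had the highest levels of the 10 genes, at 24.7 ± 9.69 and 21.8 ± 8.95 RPKM (mean ± SD, n = 2, as for all levels here), and their libraries overlapped. Stat3 followed at 11.8 ± 2.73, Socs3 at 5.76 ± 0.413 and the IL-6 receptor chain Il6ra at 2.51 ± 0.574 RPKM, each without overlap with its neighbours in the order. The cytokine Clcf1, at 1.36 ± 0.111 RPKM, overlapped the oncostatin M receptor Osmr, at 1.25 ± 0.123 RPKM. The other ligands were lowest, with Lif at 0.516 ± 0.218 RPKM above Il6 at 0.244 ± 0.122 RPKM, and Il6 overlapping Il11. Vehicle replicate 1 was above replicate 2 for both Il6st (31.6 against 17.9 RPKM) and Lifr (28.1 against 15.5 RPKM). On this per-length scale, Il6st, Lifr and Il6ra exceeded every ligand in both vehicle libraries, whereas Osmr overlapped Clcf1.

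After PTH the order changed. Stat3 was highest at 28.5 ± 1.3 RPKM, above Il6st at 26.6 ± 0.673 RPKM, and Socs3 (10.1 ± 1.38 RPKM) overlapped Lifr (9.33 ± 0.764 RPKM). Osmr came next at 4.24 ± 0.217 RPKM, followed by Clcf1 at 2.32 ± 0.196 and Il6ra at 1.5 ± 0.0247 RPKM, and Il6 (1.15 ± 0.188 RPKM) overlapped Lif (1.02 ± 0.0022 RPKM). With YKL-05-093, Il6st (21.1 ± 0.44 RPKM), Stat3 (17.4 ± 0.74 RPKM) and Lifr (14.1 ± 0.329 RPKM) were highest and did not overlap. The plot of RPKM by library shows all values.

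**Figure D1:**
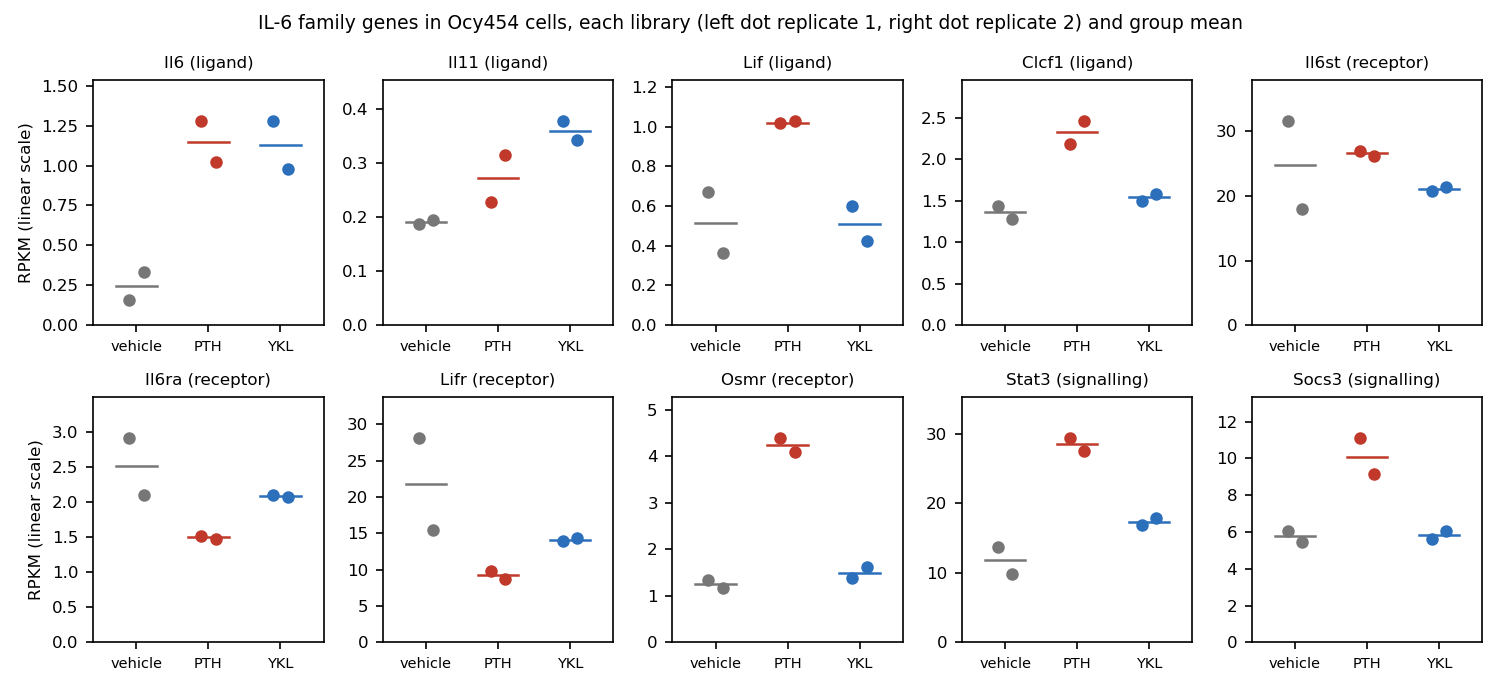
Expression of the 10 genes in each of the 6 libraries, in RPKM on a linear axis that starts at 0 and differs between panels; dots are libraries and lines are group means. Osmr in the PTH libraries (4.39 and 4.09 RPKM) sits well above the other 4 libraries (1.16 to 1.61 RPKM), whereas Il6 is at about the same level with PTH and with YKL-05-093.

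PTH raised Osmr and Stat3. Osmr increased 3.4-fold and Stat3 2.41-fold in mean RPKM, while the ligands Il6, Lif and Clcf1 and the inhibitor Socs3 were higher, and Lifr and Il6ra lower, in both PTH libraries than in both vehicle libraries without passing the test. Differences were tested with limma on log2(RPKM + 0.1), and a gene was called at a Benjamini-Hochberg adjusted p under 0.05 with a change of more than 2-fold. Of the 9 members tested, 2 were called, both higher, against 1.91% of all genes tested (272 of 14261) and 1.09% called higher. The same 2 had an adjusted p under 0.05 without the fold limit, against 2.19% of all genes. In 6 of the 9 the PTH libraries lay above the vehicle libraries, and in 2 below. Among all genes the groups did not overlap in 43.1%, with PTH higher in 19.1% and lower in 24%. The median log2 fold change was 0.80 over the 9 members and -0.03 over all genes. Il6, counted among the 6 and in this median, passed the filter only through the treated libraries. It therefore adds no support to either value.

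Osmr encodes the chain that pairs with gp130 to form the oncostatin M receptor. It measured 1.34 and 1.16 RPKM in vehicle and 4.39 and 4.09 RPKM in PTH libraries, from 289, 402, 1174 and 964 reads. Both PTH libraries lay above both vehicle libraries by more than the spread of either pair. The log2 fold change was 1.69 (SE 0.16, limma adjusted p = 0.00372), rank 45 by p among 14261 genes. Stat3, which carries the signal of all these receptors to the nucleus, measured 13.8 and 9.89 RPKM in vehicle and 29.4 and 27.6 RPKM in PTH libraries. The groups did not overlap, and the log2 fold change was 1.28 (SE 0.21, limma adjusted p = 0.0254). Exons of Stat3 and of Stat5a on the opposite strand overlap, and Stat5a itself differed by -0.15 (SE 0.18). Without either PTH library both calls were lost: with replicate 1 or 2 left out, the limma adjusted p was 0.174 or 0.141 for Osmr and 0.58 in each case for Stat3.

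Socs3, the STAT3-induced inhibitor, measured 6.05 and 5.47 RPKM in vehicle and 11.1 and 9.15 RPKM in PTH libraries. The groups did not overlap, and the log2 fold change was 0.80 (SE 0.17, limma adjusted p = 0.075), which did not pass the test.

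Among the ligands, Il6 rested on few reads. It had 3 and 10 reads in vehicle (0.158 and 0.33 RPKM) and 30 and 21 in PTH libraries (1.28 and 1.02 RPKM). All PTH values lay above all vehicle values, and the log2 fold change was 1.90 (95% interval 0.88 to 2.91, limma adjusted p = 0.0871). By summed reads, 51 against 13, the ratio per library total was 4.39, with an exact 95% interval of 2.35 to 8.79 that covers counting error only. Il6 passed the filter on low values only through the treated libraries. It was called without vehicle replicate 2 (limma adjusted p = 0.0168), and not without vehicle replicate 1 (0.061) or a PTH library (0.549 and 0.705).

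Lif, which acts through Lifr and gp130, measured 0.67 and 0.362 RPKM in vehicle and 1.02 and 1.03 RPKM in PTH libraries, a log2 fold change of 0.91 (SE 0.28, limma adjusted p = 0.206). It was called without vehicle replicate 1, at 1.28 (limma adjusted p = 0.0205), but not without vehicle replicate 2, at 0.54 (0.0814), or without a PTH library (0.995 and 1). Clcf1, a ligand of the ciliary neurotrophic factor receptor, measured 1.43 and 1.28 RPKM in vehicle and 2.18 and 2.46 RPKM in PTH libraries, a log2 fold change of 0.73 (SE 0.18, limma adjusted p = 0.109). Both were higher in each PTH library than in either vehicle library. Exons of Clcf1 overlap those of AC109138.7 on the same strand, and how the counting treated shared reads is not given in the sources used here. Il11 was under the filter and was not tested, with 0.187 and 0.195 RPKM in vehicle and 0.228 and 0.315 RPKM in PTH libraries. Its ratio of summed reads, 20 against 16, was 1.4 (exact 95% interval 0.688 to 2.88), so no difference was detectable at this depth.

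The other receptor chains did not follow Osmr. Lifr measured 28.1 and 15.5 RPKM in vehicle and 9.87 and 8.79 RPKM in PTH libraries, a log2 fold change of -1.15 (SE 0.28, limma adjusted p = 0.108). Both PTH libraries lay below both vehicle libraries, but the vehicle pair was far apart, and without vehicle replicate 2 Lifr was called lower, at -1.58 (limma adjusted p = 0.00464). Without vehicle replicate 1 it was at -0.72 (limma adjusted p = 0.013), short of 2-fold, and without a PTH library the limma adjusted p was 0.739 or 1. Il6ra measured 2.91 and 2.1 RPKM in vehicle and 1.51 and 1.48 RPKM in PTH libraries, a log2 fold change of -0.69 (SE 0.21, limma adjusted p = 0.201), again without overlap. Exons of Gm42809 on the opposite strand overlap those of Il6ra. Il6st, at 31.6 and 17.9 RPKM in vehicle and 27 and 26.1 RPKM in PTH libraries, differed by 0.16 (95% interval -0.48 to 0.80), and its groups overlapped.

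YKL-05-093 raised or lowered none of the 9 members past the test, against 0.666% of all genes called (95 of 14255). By limma, 2 of the 9 (Il6 and Stat3) had an unadjusted p under 0.05, beside 8.66% of all genes, and limma with voom weights on the recovered reads also called 0. The YKL-05-093 libraries lay above vehicle for 4 members and below for 2. Il6, with an unadjusted p under 0.05 and among the 4 above vehicle, passed the filter only through the treated libraries. It therefore adds no support to these counts. Among all genes the groups did not overlap in 37.8%, with YKL-05-093 higher in 15.7% and lower in 22.1%. The median log2 fold change of the members was 0.02, and -0.04 over all genes. These values share the vehicle libraries with the PTH comparison.

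Il6 was the member that stood farthest from vehicle. Its YKL-05-093 libraries held 28 and 22 reads (1.28 and 0.98 RPKM), both above the vehicle values given earlier, and the log2 fold change was 1.87 (95% interval 0.82 to 2.92, limma adjusted p = 0.183). The ratio of summed reads, 50 against 13, was 4.26 (exact 95% interval 2.28 to 8.56, counting error only). It was called without vehicle replicate 2 (limma adjusted p = 0.0404), and not without vehicle replicate 1 (0.141) or a YKL-05-093 library (0.549 and 1). Stat3 measured 16.9 and 17.9 RPKM, above both vehicle libraries, with a log2 fold change of 0.57 (SE 0.20, limma adjusted p = 0.452). Osmr, at 1.39 and 1.61 RPKM, was also above both, but differed by only 0.25 (95% interval -0.16 to 0.65).

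Socs3, at 5.63 and 6.05 RPKM, differed from vehicle by 0.02 on the log2 scale (95% interval -0.36 to 0.40). Lif, at 0.601 and 0.422 RPKM, differed by 0.02 (95% interval -0.75 to 0.79), and Clcf1, at 1.5 and 1.58 RPKM, by 0.17 (95% interval -0.26 to 0.61). Lif and Socs3 overlapped their vehicle libraries, whereas both Clcf1 values were above theirs. Lifr, at 13.9 and 14.3 RPKM, lay below both vehicle libraries with a log2 fold change of -0.56 (95% interval -1.22 to 0.10). Il6ra, at 2.1 and 2.07 RPKM, differed by -0.24 (95% interval -0.73 to 0.25), and Il6st, at 20.8 and 21.4 RPKM, by -0.17 (95% interval -0.82 to 0.47). Il11 had 14 and 13 reads, and its ratio of summed reads to vehicle was 1.87 (exact 95% interval 0.972 to 3.72).

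**Figure D2:**
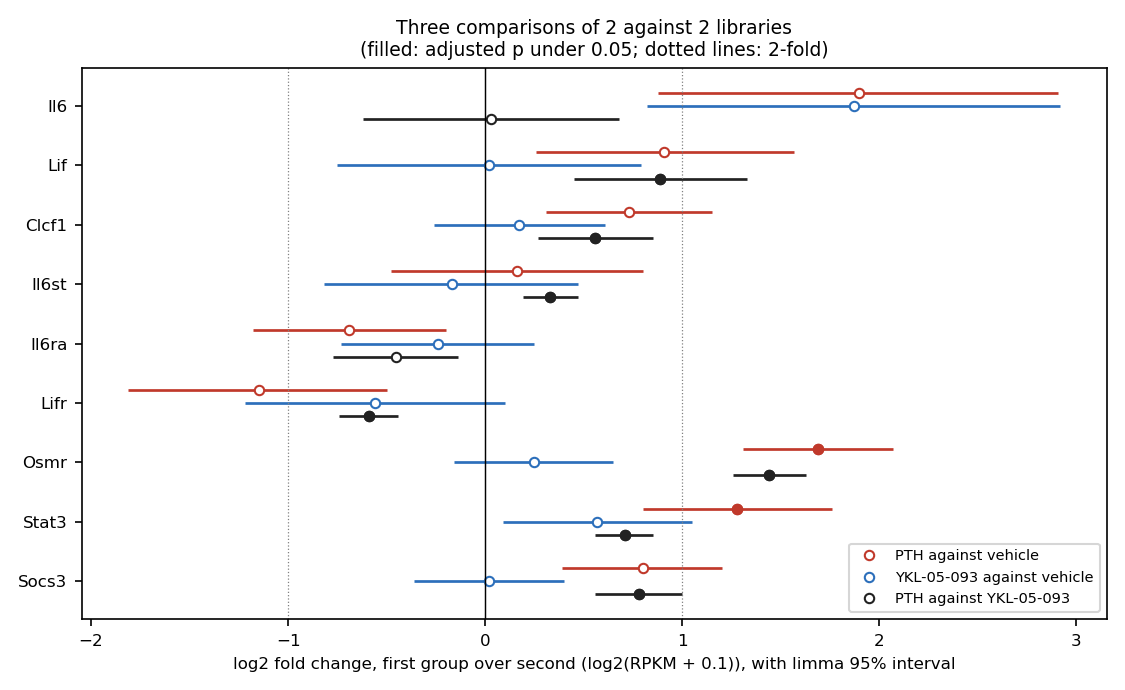
Log2 fold change of the 9 tested genes, on log2(RPKM + 0.1), with the limma 95% interval, for PTH against vehicle, YKL-05-093 against vehicle and PTH against YKL-05-093, 2 against 2 libraries each; filled dots have an adjusted p under 0.05 and dotted lines mark 2-fold. Il6 lies near 1.9 for both agents and near 0 between them, whereas Osmr lies at 1.69, 0.25 and 1.44.

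In the fit as reported, PTH and YKL-05-093 differed directly in most of these genes. How many differed depended on the spread estimate and on single libraries, as given below. Osmr was 2.83-fold higher with PTH, and Stat3 1.64-fold, Socs3 1.73-fold, Lif 2-fold, Clcf1 1.51-fold and Il6st 1.26-fold higher in mean RPKM, while Lifr was lower at a ratio of 0.662. By limma, 7 of the 9 members had an adjusted p under 0.05, 6 higher and 1 lower with PTH, against 9.98% of all genes, 4.87% higher and 5.11% lower. Of these, 1 (Osmr) also passed 2-fold, against 1.21% of all genes (172 of 14255) and 0.737% called higher. Libraries did not overlap for 8 of the 9, 6 higher and 2 lower with PTH, beside 50% of all genes, 26.3% higher and 23.7% lower. The median log2 difference was 0.56 over the members and 0.01 over all genes. The doses were 1 nM and 0.5 µM, each given for the same time, and equal strength of the agents at these doses was not tested.

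The difference for Osmr was 1.44 on the log2 scale (SE 0.09, limma adjusted p = 2.35e-08), rank 18 by p among 14255 genes. For Stat3 it was 0.71 (SE 0.07, limma adjusted p = 2.77e-06) and for Socs3 0.78 (SE 0.10, limma adjusted p = 7.74e-05). Among the ligands, Lif differed by 0.89 (SE 0.21, limma adjusted p = 0.00976) and Clcf1 by 0.56 (SE 0.14, limma adjusted p = 0.0137). Among the receptors, Il6st differed by 0.33 (SE 0.07, limma adjusted p = 0.00328) and Lifr by -0.59 (SE 0.07, limma adjusted p = 2.65e-05), whereas Il6ra, at -0.45 (SE 0.15, limma adjusted p = 0.0653), did not pass.

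Il6 stood apart from this pattern. It differed between the agents by 0.03 (95% interval -0.62 to 0.68), and its summed reads, 51 and 50, gave a ratio of 1.03 (exact 95% interval 0.683 to 1.55). A difference inside these intervals was not detectable at this depth. The Il11 ratio, 0.747 (exact 95% interval 0.397 to 1.38), was no more precise. The count of 7 depended on how the spread was estimated and on single libraries: it was 1 (Osmr) when all 6 libraries shared 1 estimate of the spread, and 0 without PTH replicate 1 or without PTH replicate 2. It was 3 without YKL-05-093 replicate 1 and 2 without YKL-05-093 replicate 2.

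The balance between receptor chains was also read within each library, where a shift common to all genes cancels. This ratio was added after the values had been seen and is given with no test. Lifr exceeded Osmr in RPKM by 21.1-fold and 13.3-fold in vehicle, by 2.25-fold and 2.15-fold in PTH, and by 9.96-fold and 8.92-fold in YKL-05-093 libraries. Lifr relative to Il6st was 0.891 and 0.865 in vehicle, 0.365 and 0.337 in PTH, and 0.668 and 0.67 in YKL-05-093 libraries. The vehicle pair, far apart in Lifr itself, was close together in this ratio, and the 3 groups did not overlap. A shift common to all genes was small in that pair. The median log2 difference of replicate 1 minus replicate 2 was 0.063, beside a median absolute difference of 0.333. Why Lifr and Il6st differed together between the vehicle libraries was not tested. Osmr relative to Il6st was 0.0423 and 0.0651 in vehicle, 0.162 and 0.157 in PTH, and 0.067 and 0.0751 in YKL-05-093 libraries. Il6ra relative to Il6st was 0.056 and 0.0567 with PTH, below the other 4 libraries (0.0923 to 0.118).

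Osmr and Lifr are neighbours on chromosome 15. In GRCm38, Osmr (ENSMUSG00000022146) spans 6813577 to 6874969 on the minus strand and Lifr (ENSMUSG00000054263) 7090614 to 7197489 on the plus strand, so the genes are transcribed away from each other. In this annotation, GENCODE, their starts are 216 kb apart, with 0 protein-coding genes and 1 other gene between them. The RefSeq starts used for the promoter windows of both genes lie at other positions. Of 8 protein-coding genes with a start within 1000 kb of the Osmr start, Osmr included, 5 passed the filter, and 1, Osmr itself, was called after PTH. Rictor, on the other side of Osmr, differed by 0.01 (SE 0.27, limma adjusted p = 0.995), and Egflam, beyond Lifr, was under the filter. Stat3 (ENSMUSG00000004040, chromosome 11, 100885098 to 100939540, minus strand) overlaps Stat5a. The nearest protein-coding genes that do not overlap it are Stat5b, beyond Stat5a, which differed by -0.11 (SE 0.20, limma adjusted p = 0.874), and Cavin1, which differed by -0.29 (SE 0.18, limma adjusted p = 0.579).

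**Figure D3:**
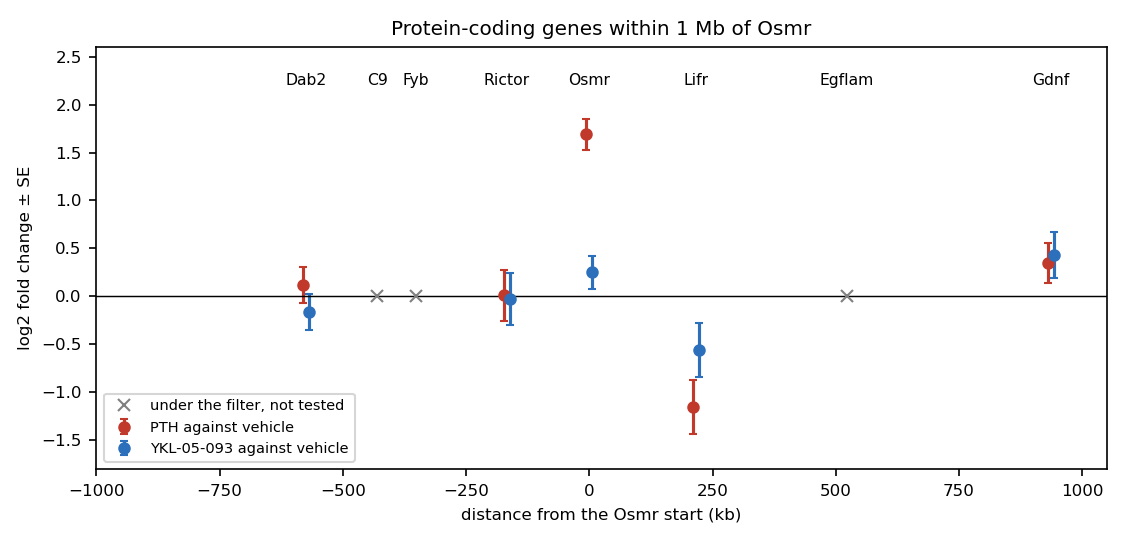
Log2 fold change ± SE for PTH and for YKL-05-093 against vehicle of the protein-coding genes around Osmr, by distance of their start from the Osmr start in kb; crosses mark genes under the filter. Osmr lies at 1.69 with PTH and its neighbour Lifr at -1.15, with Rictor at 0.01 on the other side.

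The genes whose pattern over the 6 libraries was most like that of the called members were found by the root-mean-square difference of log2(RPKM + 0.1), each gene centred on its mean, among 14264 genes. Osmr was most like Tnfrsf19, a TNF receptor family member (difference 0.087; 9.34, 29.7 and 12.3 RPKM in vehicle, PTH and YKL-05-093), Gpr153 (0.103) and Gfra1, a receptor for the neurotrophic factor GDNF (0.135). Stat3 was most like Fzd1, a Wnt receptor (difference 0.025; 24.8, 60.6 and 36.1 RPKM), Kremen1, a receptor for Dickkopf Wnt antagonists (0.044), and Fam134b (0.082). With 6 libraries that share their conditions and depths, these are descriptions of likeness.

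The other members lie apart in GRCm38. Il6 (ENSMUSG00000025746) spans 30013114 to 30019981 on chromosome 5 (plus strand), Il11 (ENSMUSG00000004371) 4772373 to 4782859 on chromosome 7 (minus strand) and Clcf1 (ENSMUSG00000040663) 4214238 to 4223490 on chromosome 19 (plus strand). Il6st (ENSMUSG00000021756) spans 112464070 to 112510086 on chromosome 13 (plus strand) and Il6ra (ENSMUSG00000027947) 89864059 to 89913196 on chromosome 3 (minus strand). Like Stat3, both Lif (ENSMUSG00000034394, 4257557 to 4272514, plus strand) and Socs3 (ENSMUSG00000053113, 117966079 to 117970047, minus strand) are on chromosome 11. Lif lies next to Osm, the gene for the main ligand of the oncostatin M receptor.

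Osm itself was at 0 in 5 of the 6 libraries, with 1 read in PTH replicate 1. Of the 8 other IL-6 family ligand genes listed, 2 passed the filter and 0 were called in any of the 3 comparisons. Ctf1, which encodes cardiotrophin 1, measured 0.553 and 0.533 RPKM in vehicle, 0.724 and 1.13 in PTH, and 0.845 and 0.611 in YKL-05-093 libraries. Both agents lay above vehicle, by 0.65 (SE 0.34) with PTH and 0.35 (SE 0.34) with YKL-05-093 on the log2 scale, without passing the test. Of 5 other receptor genes, 1 passed the filter, Il11ra1, the IL-11 receptor chain, at 9.29 ± 1.53 RPKM in vehicle, 9.81 ± 0.565 in PTH and 10.5 ± 1.16 in YKL-05-093 libraries, and it was not called in any comparison.

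Among JAK kinases, the other STATs and SHP2, 10 of 11 passed the filter and 0 were called in any comparison, with medians of -0.15 for PTH, -0.17 for YKL-05-093 and -0.04 between them. By limma, 1 of the 10 had an unadjusted p under 0.05 with PTH (13.3% of all genes), 0 with YKL-05-093 (8.66%) and 4 between the agents (22.3%). Stat6 had the highest mean level over all 6 libraries, with 26.9 ± 3.63 RPKM in vehicle, 28.5 ± 1.21 in PTH and 23.7 ± 0.951 in YKL-05-093 libraries, although Jak2 (31.1 ± 7.36 and 24.8 ± 1.64 RPKM) and Jak1 (28.6 ± 8.03 and 24.1 ± 0.985 RPKM) had higher means in vehicle and YKL-05-093. No tested STAT gene other than Stat3 was called after PTH, although Stat3 was not tested against the others. Between the agents, Jak2, a kinase bound to gp130, was lower with PTH by -0.52 (limma adjusted p = 0.000105) without reaching 2-fold.

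Of the other SOCS proteins, PIAS proteins and phosphatases, 12 of 13 passed the filter. None was called after PTH, where 0 had an unadjusted p under 0.05 by limma, and 1, Socs5, was called lower after YKL-05-093. Socs5, a SOCS family member known for acting on the epidermal growth factor receptor, measured 5.53 and 3.85 RPKM in vehicle, 3.75 and 3.97 in PTH, and 1.56 and 1.77 in YKL-05-093 libraries. Its YKL-05-093 libraries lay below all others, with a log2 fold change of -1.42 (SE 0.21, limma adjusted p = 0.0458) against vehicle, and PTH was higher than YKL-05-093 by 1.17 (SE 0.12, limma adjusted p = 4.74e-06). The call against vehicle was lost without YKL-05-093 replicate 1 (limma adjusted p = 0.497), YKL-05-093 replicate 2 (0.0978) or vehicle replicate 1 (0.0851), and that between the agents without PTH replicate 1 (0.149) or 2 (0.152). Ptpn2, a phosphatase that acts on JAKs and STATs, had the highest mean level, at 13.6 ± 0.625, 13.1 ± 0.233 and 12.4 ± 0.647 RPKM, and was not called. The list median was -0.10 for PTH and -0.15 for YKL-05-093.

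Of 19 genes listed as STAT3 targets, 16 passed the filter, and after PTH 5 were called higher and 0 lower, beside 1.91% of all genes called and 1.09% called higher. The list median was 0.47, and -0.03 over all genes. They were Bcl3, an NF-kB cofactor (1.95, SE 0.34, limma adjusted p = 0.0342), the CCAAT-enhancer-binding factors Cebpb (1.58, SE 0.16, limma adjusted p = 0.00412) and Cebpd (1.25, SE 0.19, limma adjusted p = 0.0222), the AP-1 subunit Fos (1.90, SE 0.20, limma adjusted p = 0.00457) and the kinase Pim1 (1.12, SE 0.17, limma adjusted p = 0.0197). Several of these, Fos and Cebpb among them, are also known as genes induced by cyclic AMP, and the list does not separate these inputs. Bcl3, at 0.145 and 0.0909 RPKM in vehicle and 0.251 and 0.473 RPKM in YKL-05-093 libraries, passed the filter only through the PTH libraries (0.706 and 0.762 RPKM). That is the group in which Bcl3 was called higher, so it adds no support to the count of 5 or to the list median. The list was chosen with earlier results of these data known. All 5 calls were lost with no filter, and without PTH replicate 1 or PTH replicate 2, where their limma adjusted p lay between 0.0818 and 0.549. Bcl3 also lost its call at a pseudocount of 1 RPKM, where it was at 0.63 (limma adjusted p = 0.154), and with the spread trended on the mean value Bcl3 (0.209) and Cebpd (0.0592) lost theirs. Pim1 also fell short of 2-fold, at 0.99, without vehicle replicate 2. Myc fell by 0.93 on the log2 scale (limma adjusted p = 0.0278) without reaching 2-fold.

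YKL-05-093 called 1 of the 16 (0.666% of all genes), Fos, at 1.53 (SE 0.19, limma adjusted p = 0.0274), with a list median of -0.01. That call was lost without vehicle replicate 1 (limma adjusted p = 0.072), YKL-05-093 replicate 1 (0.229) or YKL-05-093 replicate 2 (0.127). By limma, 7 of the 16 had an unadjusted p under 0.05 with YKL-05-093, beside 8.66% of all genes. The YKL-05-093 libraries lay above vehicle for 5 of the 16 and below for 6. Bcl3 is among the 7 and the 5, and was tested only because its PTH libraries passed the filter. Cebpb, Cebpd and Pim1 were above without passing the test (limma adjusted p = 0.0662, 0.0662 and 0.07). Ccnd1 and Myc were below without passing it (limma adjusted p = 0.122 and 0.24). Cebpd measured 15.6 and 21.3 RPKM in vehicle, 45.5 and 41.7 in PTH, and 39.1 and 45.1 in YKL-05-093 libraries, and the agents overlapped. Pim1 measured 6.1 and 5.09, 12 and 12.5, and 10.8 and 12.5 RPKM in the same order. Between the agents 0 of the 16 were called, while 7 had an adjusted p under 0.05 without reaching 2-fold, all higher with PTH (4.87% of all genes), and 11 an unadjusted p under 0.05 by limma (22.3% of all genes). They included Cebpb at 0.63 and Fos at 0.38, and Timp1, an inhibitor of matrix metalloproteinases with the highest mean level of the list, at 0.80. Timp1 measured 84.3 ± 31.2 RPKM in vehicle, 153 ± 8.8 with PTH and 87.7 ± 4.53 with YKL-05-093. Bcl3, which passed the filter only through the PTH libraries, is among the 11 and adds no support to that count.

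**Figure D4:**
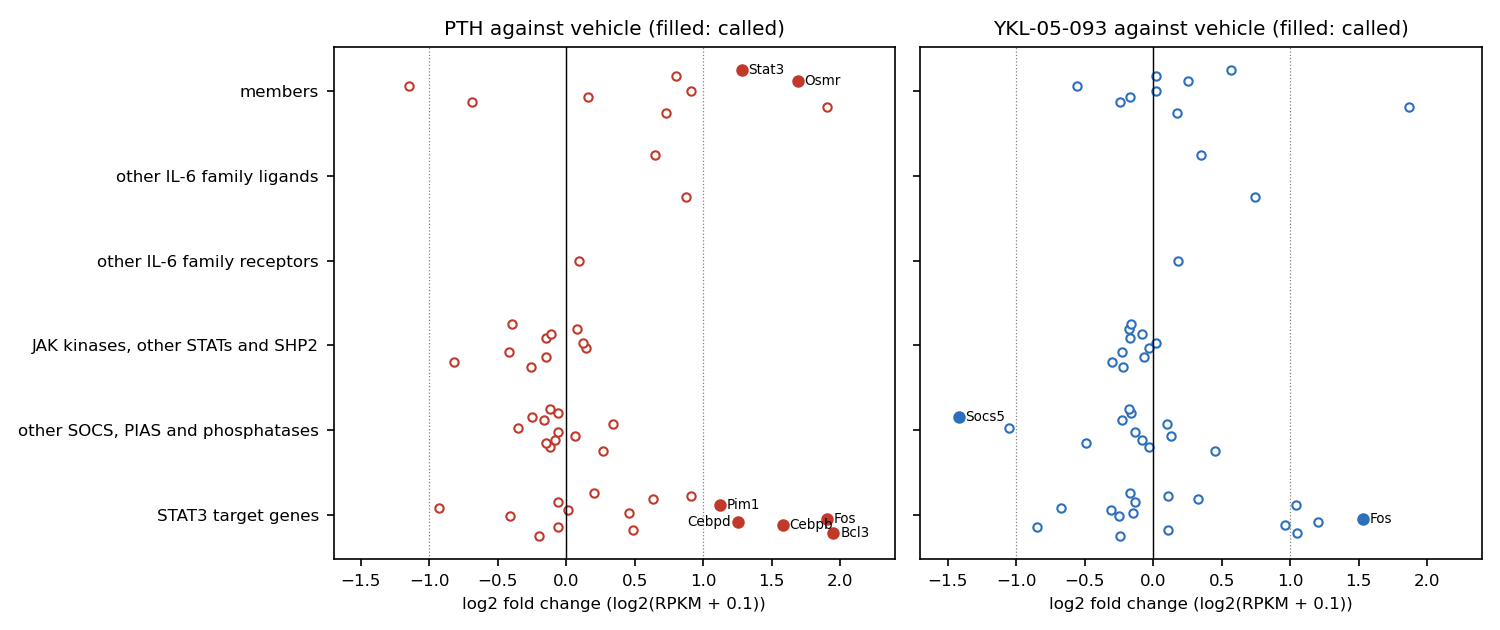
Log2 fold change, on log2(RPKM + 0.1), of each tested gene of the IL-6 family members and of 5 lists of related genes, for PTH and for YKL-05-093 against vehicle; filled and named dots were called and dotted lines mark 2-fold. The called genes after PTH are Osmr, Stat3 and 5 of the 16 tested STAT3 targets, and after YKL-05-093 they are Socs5 and Fos.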

How the data were processed

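Libraries were prepared from Ocy454 total RNA after removal of ribosomal RNA, with a directional kit. Per the labels and the study's methods, the authors used CASAVA 1.7, aligned to mm10 (GRCm38) with STAR and counted genes with HTSeq on Ensembl annotation. The deposited values are RPKM as made by the authors; the gene lengths and the strand setting used are not given in the sources used here. The single-library tables held the same values as the series table (6 of 6).

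Because RPKM values are whole multiples of 1 read, reads and library totals were recovered: 26214 of 26214 genes above 0 gave whole reads within 1e-05 of a read, 99.7% of each total. These served as the depth covariate and for read ratios, whose exact intervals and whose floor of 3 reads cover counting error only.

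Genes with at least 0.5 RPKM in 2 of 6 libraries (14264) were tested with limma 3.58.1 (R 4.3.3) on log2(RPKM + 0.1), with 1 fit per comparison of 4 libraries and a spread trended on mean log2 reads. P-values were adjusted by Benjamini-Hochberg over all genes tested. A gene was called at adjusted p under 0.05 and over 2-fold; fold changes on this scale understate those of low genes. With 2 against 2 libraries an exact two-sided permutation test of a single gene cannot go below p = 0.333, so none was used. The recovery and the fits were tested on simulated data. In the simulated fits all groups shared the same spread, so the wider spread of the vehicle pair was not covered.

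Gene positions are from GENCODE M21 and promoters from RefSeq. The members, lists and tests were chosen with earlier results of these data known, and the motif letters after the Il6 promoter had been seen. The text names all members, every list gene called in a comparison, the gene of each list with the highest mean RPKM, the nearest protein-coding neighbours of called members, and the 3 genes most like each called member. One item that this rule would name is not reported here. Other genes named, among them Osm, Ctf1, Jak2, Myc and Stat5a, were chosen after their values were seen. Alternatives were other pseudocounts, filters, scaling, spread estimates, 1 fit of all libraries, voom on recovered reads, a replicate block, and leaving out each library.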

Additional observations from a re-analysis of the deposited data

How the results depend on the processing

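Of 378 values of single members under an alternative, 350 kept their direction and their side of the threshold, 11 newly passed it, 9 no longer did and 8 changed sign. Most of the 378 belong to members that were not called in the fit as reported and so had no call to lose. The 9 losses all fell on Osmr and Stat3 after PTH and on Osmr between the agents. Of 111 values of the called list genes, 76 kept their call and 35 lost it, with 0 changes of sign. Socs5 after YKL-05-093 also lost it at pseudocounts of 0.01 and 1 RPKM (limma adjusted p = 0.0539 and 0.0777) and with a filter of 0.1 RPKM (0.0748). The cause of these changes was not tested beyond the settings themselves.

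PTH called 272 genes and 2 members. With no filter, limma called 0 genes and 0 members, although 2342 genes had an unadjusted p under 0.05. Voom was run only with the filter, where it called 287 genes. Osmr then had a limma adjusted p of 0.058 and Stat3 of 0.154. With the spread trended on the mean value 160 genes and 1 member (Osmr) were called, Stat3 having a limma adjusted p of 0.0586, and with 1 fit of 6 libraries 4 members were called, Il6 (0.0337) and Lifr (0.0457) added. By adjusted p alone, 2 members passed with PTH in the fit as reported, 0 with no filter, 6 with 1 fit and 1 with the trend on the mean value. Leaving out 1 library gave 14 to 669 genes, 0 to 4 members called and 0 to 7 members by adjusted p alone. The remaining library of that group is then assumed to vary like the other groups.

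YKL-05-093 called 95 genes and 0 members. The genes numbered 55 at a pseudocount of 1 RPKM, 57 with a filter of 0.1 RPKM, 173 with 1 fit, 6 with the trend on the mean value, and 0 with no filter, where 1735 had an unadjusted p under 0.05 by limma. Voom, run with the filter, called 96. Leaving out 1 library gave 11 to 321 genes, 0 to 1 member called and 0 to 3 members by adjusted p alone.

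Between the agents, 172 genes were called: 98 at a pseudocount of 1 RPKM, 102 with 1 fit and 1423 by adjusted p alone. The 1 member called became 2 (Osmr and Lif) at a pseudocount of 0.01 RPKM and with voom, and 7 by adjusted p alone. The 7 members by adjusted p became 2 with no filter, 1 with 1 fit and 4 with the trend on the mean value. Leaving out 1 library gave 0 to 155 genes, 0 to 1 member called and 0 to 3 by adjusted p alone. The 0 came without PTH replicate 1 (2130 genes with an unadjusted p under 0.05 by limma) and without PTH replicate 2 (2021), where Osmr had a limma adjusted p of 0.127 and 0.12.

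Signs changed only where a library was left out: Il6st ranged from -0.25 to 0.57 for PTH and -0.58 to 0.24 for YKL-05-093, Lif from -0.35 to 0.39 and Socs3 from -0.05 to 0.09 for YKL-05-093, and Il6 from -0.15 to 0.20 between the agents. Their individual values were -0.25, -0.35, -0.19, 0.24, -0.05, -0.03, -0.13 and -0.15.

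Same-numbered libraries did not deviate together (r = -0.034, -0.054 and -0.049), and the fits as reported did not pair them. The sample titles give only a replicate number, and these correlations cannot decide whether same-numbered libraries were handled together. With a replicate block, PTH called 440 genes and 4 members (7 by adjusted p alone), YKL-05-093 215 genes and 1 member (1 by adjusted p alone), and the agents differed in 196 genes and 8 members by adjusted p alone.

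Depth limits Il6 and Il11 most: 3 reads, the smallest count read as present, equal 0.0536 to 0.0857 RPKM for a gene of 2000 bases.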
